A study of Mus musculus with 8 samples.

Results

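The genes examined here encode the proteins of the mitochondrial ribosome, in mouse J1 embryonic stem cells in which the translation factor eIF4A2 had been knocked down. They were chosen by name, as every gene of the deposited tables whose symbol starts with Mrpl or Mrps followed by a digit, with no measured value used. The rule gave 77 genes of 13838, namely 48 Mrpl genes, named for the large subunit, and 29 Mrps genes, named for the small subunit. Of these, 76 were in the table of ribosome footprints (12818 genes) and 77 in the table of total RNA (13436 genes), and 76 and 77 were kept by the filter on low values. The gene found in total RNA only was Mrpl23-ps1, a pseudogene with 0.79 and 1.05 CPM in the knockdown and 0.80 and 1.55 CPM in the control. Ribosome footprints are the mRNA fragments that ribosomes shield from nuclease, and CPM is the usual abbreviation for reads scaled to a common library size, here by the authors.

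The knockdown cells had been infected with shRNAs against eIF4A2 (sheIF4A2-2, sheIF4A2-3) and the control cells with shNT or shGFP, and the labels do not tie a replicate to an shRNA. All groups were J1 cells of strain 129S4/SvJae without feeders in serum and LIF, under 1 μg/mL puromycin for 3 days, taken on day 4.5 after 1 min in 0.1 mg/mL cycloheximide. The 4 groups are knockdown footprints, control footprints, knockdown total RNA and control total RNA, each with 2 libraries that the labels call biological replicates. No label names the cultures, so the p-values measure the spread between these libraries. Read numbers were 7947827 and 9573832 in knockdown footprints, 9458103 and about 10682677 in control footprints (the number of control 2 is less sure, as the value of 1 read there could not be told from rounding), 12228408 and 12840349 in knockdown total RNA, and 8564582 and 9489221 in control total RNA. The targeted gene, Eif4a2, had 310.8 and 153.5 CPM in knockdown footprints against 394.9 and 408.9 CPM in control footprints. Its total RNA was 582.6 and 617.4 CPM in the knockdown and 739.1 and 969.1 CPM in the control, so both knockdown libraries lay below both control libraries, though limma called the gene in neither assay (adjusted p = 0.273 for footprints and 0.290 for total RNA). All 8 stem cell markers examined were present, and all 8 had negative log2 fold changes in both assays, with summed footprints of 4309 and 4206 CPM in the knockdown and 6592 and 6256 CPM in the control. Of 8 fibroblast markers 4 were in the tables, with summed footprints of 26.0 and 25.7 CPM in the knockdown and 28.3 and 18.4 CPM in the control. In bulk libraries such as these, fewer cells of a type and less RNA per cell cannot be told apart, and the part of the marker genes in the results was not tested.

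Mitochondria keep their own ribosome, which translates the few membrane proteins of the respiratory chain that mitochondrial DNA encodes. Its RNA comes from mitochondrial DNA, but its proteins are encoded in the nucleus, made on cytoplasmic ribosomes and imported, so that footprints on their mRNAs report cytoplasmic translation. Some of these proteins descend from bacterial ribosomal proteins and others exist only in mitochondrial ribosomes. eIF4A2 belongs to the DEAD-box helicases, which unwind RNA, and acts with the factors that start translation. The design asks which mRNAs differ after its knockdown in ribosome occupancy, in amount, or in occupancy relative to amount.

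Mitochondrial ribosomal protein mRNAs took a small share of the cells' footprints, which was 0.511% and 0.512% in the knockdown libraries and 0.515% and 0.50% in the control libraries. Single genes ranged from 13.2 to 282 CPM in knockdown 1, from 19.4 to 287 in knockdown 2, from 16.4 to 282 in control 1 and from 11.4 to 309 in control 2. Outside control 2 the lowest value rested on 117 reads. Median footprints per gene were 51.4 and 56.9 CPM in the knockdown against 54.8 and 59.2 CPM in the control, so knockdown 1 was the lowest of the 4 libraries.

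No mitochondrial ribosomal protein gene passed the test in footprints. Limma, adjusted over all 12723 genes tested, called 0 of 76 members (0% of all genes were called), and edgeR without control 2 also called 0. Without adjustment 1 member was higher and 5 were lower at p below 0.05, against 6.12% of all genes higher and 6.74% lower. The median log2 fold change was -0.13 over the members, -0.15 over the large subunit and -0.09 over the small subunit, against 0.005 over all genes tested. Negative values were found in 52 of 76 members, 33 of 47 Mrpl and 19 of 29 Mrps genes, against 49.4% of all genes. In 22 members both knockdown libraries lay below both control libraries and in 8 they lay above, where all genes gave 22.5% below and 22.3% above.

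The median below 0 rested on 1 library. Knockdown 1 held the lowest of the 4 footprint values in 40 of 76 members, where it did so in 3556 of all 12723 genes tested. It also did so in 38 of 83 cytoplasmic ribosomal proteins, 10 of 15 mitochondrial translation factors and 6 of 26 mitochondrial ribosome assembly factors. CPM summed to 894269 in knockdown 1, 1001553 in knockdown 2, 1004613 in control 1 and 1058777 in control 2. As a share of that sum the members were not lowest in knockdown 1 (0.511%, against 0.50% in control 2). The part of this scaling in the result was not tested. The members' median deviation in knockdown 1 was -0.15 from the mean of the 4 libraries on the log2 scale. The same deviation was 0.04 in knockdown 2, 0.02 in control 1 and 0.07 in control 2. Without knockdown 1 the members' median log2 fold change was 0.024, with 36 of 76 negative, -0.041 for the large subunit and 0.067 for the small subunit. Without knockdown 2 it was -0.18. Of the knockdown libraries, knockdown 1 also had the higher Eif4a2 footprints, and the part of this in the result was not tested.

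**Figure D1:**
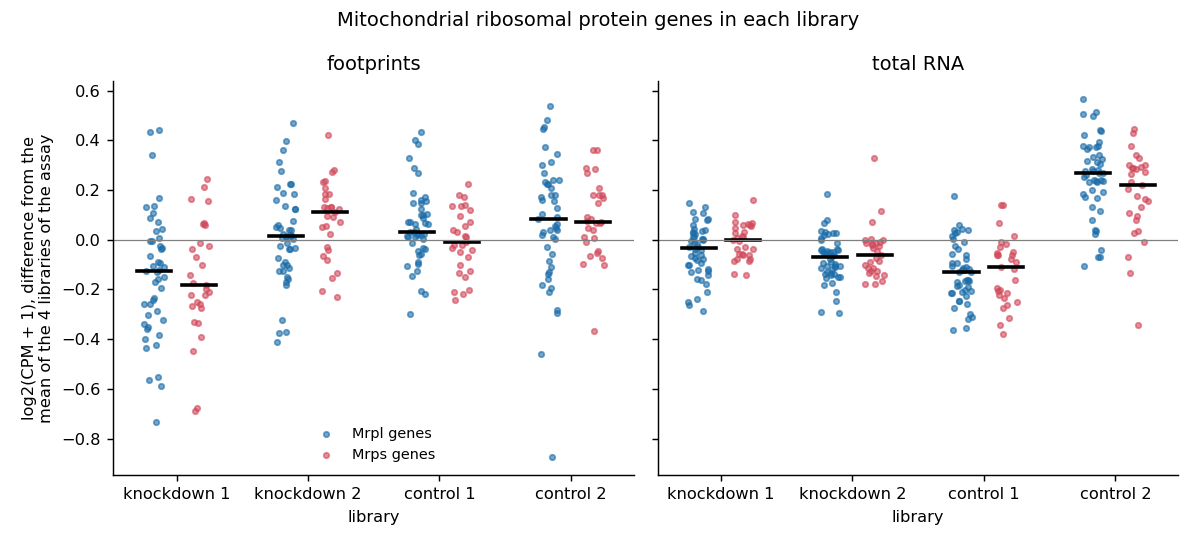
Each point is 1 mitochondrial ribosomal protein gene in 1 library, as log2(CPM + 1) minus the mean of the 4 libraries of its assay, for 76 genes in footprints (left) and 77 in total RNA (right). Black bars are medians of the Mrpl and Mrps genes. Footprints sit lowest in knockdown 1 (median over all members -0.15), and total RNA sits highest in control 2 (0.26).

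Among large subunit proteins with a bacterial counterpart, Mrpl24, a protein that binds ribosomal RNA early in assembly in bacteria, had the smallest p of all members. Its footprints were 124.6 and 123.4 CPM in the knockdown and 207.1 and 230.1 CPM in the control. Both knockdown libraries lay far below both controls, at 56.7% of the control mean. The log2 fold change was -0.81 ± 0.16 (SE) with a limma adjusted p of 0.11, and it kept between -0.89 and -0.74 when any 1 library was left out. Total RNA of Mrpl24 was 109.9 and 106.9 CPM in the knockdown against 134.5 and 185.4 CPM in the control, with a log2 fold change of -0.54 ± 0.18 (limma adjusted p = 0.270). Here too the groups did not overlap. The gene overlaps Rrnad1 in the RefSeq annotation, and whether strand was used in counting is not stated in the sources used here. Footprints of Rrnad1 were 10.8 and 8.68 CPM in the knockdown and 9.13 and 11.7 CPM in the control, and its part in the values of Mrpl24 was not tested. The authors' deposited table gives Mrpl24 a footprint log2 fold change of -0.82 with an FDR of 0.0233.

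Mrpl48, found only in mitochondrial ribosomes, where it sits in the central protuberance of the large subunit, had the lowest log2 fold change of all members. Its footprints were 16.9 and 19.4 CPM in the knockdown and 33.9 and 37.4 CPM in the control, from 150 to 319 reads in the libraries other than control 2. The knockdown mean was 50.9% of the control mean, and the groups did not overlap. The log2 fold change was -0.94 ± 0.20 (limma adjusted p = 0.125), between -1.03 and -0.85 with 1 library left out. Total RNA was 20.5 and 20.4 CPM in the knockdown and 25.5 and 37.8 CPM in the control, with a log2 fold change of -0.58 ± 0.22 (limma adjusted p = 0.299). Control 2 stood above control 1, and the knockdown libraries were alike and below both. Mrpl48 has a named pseudogene and overlaps Rab6a, whose footprints were 57.4 and 38.0 CPM in the knockdown against 50.2 and 57.6 CPM in the control. The authors' deposited table gives Mrpl48 -0.97 in footprints with an FDR of 0.0230. These are 2 members below an FDR of 0.05 in that table, both lower, where 0.889% of its genes were lower and 0.788% higher.

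Mrpl17, a bacterial-type protein of the large subunit near the exit of the peptide tunnel, was the member with the smallest p among those higher in the knockdown, in both assays. It had 103.6 and 140.3 footprint CPM in the knockdown and 86.8 and 82.9 CPM in the control. Total RNA was 94.4 and 99.3 CPM in the knockdown and 76.4 and 81.1 CPM in the control. Neither pair of groups overlapped. The log2 fold changes were 0.50 ± 0.19 in footprints (limma adjusted p = 0.312) and 0.30 ± 0.13 in total RNA (limma adjusted p = 0.364). It was the only 1 of 76 members above control in every library of both assays, where 12.3% of all genes were, and 11 members were below control in every library of both, where 12.4% of all genes were.

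The promoters of these opposite cases are shown because Mrpl24 and Mrpl17 had the smallest p of the lower and of the higher members in both assays. They are 300 bases from RefSeq (GRCm38.p6), 250 before and 50 after the gene's start, for Mrpl24 at chr3:87919294-87919593 on the plus strand and for Mrpl17 at chr7:105811038-105811337 on the minus strand. Capitals mark the ETS letters CCGGAAG and the NRF1 motif on either strand, both bound by activators of many genes for mitochondrial proteins.
Mrpl24: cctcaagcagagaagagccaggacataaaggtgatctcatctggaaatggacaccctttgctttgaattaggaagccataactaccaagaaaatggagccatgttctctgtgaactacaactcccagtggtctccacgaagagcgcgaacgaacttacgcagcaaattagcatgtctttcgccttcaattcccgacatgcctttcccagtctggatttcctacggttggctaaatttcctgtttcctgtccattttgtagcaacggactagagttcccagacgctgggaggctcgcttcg
Mrpl17: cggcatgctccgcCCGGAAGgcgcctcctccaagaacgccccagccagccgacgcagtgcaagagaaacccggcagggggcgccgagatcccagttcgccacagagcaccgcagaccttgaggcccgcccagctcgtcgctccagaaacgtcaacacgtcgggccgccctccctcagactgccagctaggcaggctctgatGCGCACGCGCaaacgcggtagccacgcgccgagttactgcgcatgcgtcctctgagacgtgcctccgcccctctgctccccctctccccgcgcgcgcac
The Mrpl17 promoter holds 1 ETS match at -237 and 1 NRF1 match at -49, counted from the gene's first base as 0, and is 69.7% G and C. The Mrpl24 promoter holds neither match nor the YY1 letters AAGATGGCG, and is 48.3% G and C. Other members differ from this pair. Mrpl48, also lower in both assays, has an ETS match at -34 in 1 of its 4 promoters. Of members with higher footprints, Mrpl27 has an ETS match at -55 and Mrpl20 has none of these motifs. Whether the motifs go with the direction of change was not tested.

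Mrpl42, a mitochondria-specific protein of the large subunit, had 36.2 and 54.1 footprint CPM in the knockdown and 61.5 and 75.6 CPM in the control. Its total RNA was 52.8 and 49.8 CPM in the knockdown and 47.5 and 65.2 CPM in the control. Footprints thus lay below both controls while total RNA lay between them. The footprint log2 fold change was -0.61 ± 0.22 (limma adjusted p = 0.304), and -0.33 with knockdown 1 left out. Mrps33, a mitochondria-specific protein of the small subunit, had 34.5 and 34.3 footprint CPM in the knockdown and 45.7 and 49.5 CPM in the control. Its log2 fold change was -0.45 ± 0.17 (limma adjusted p = 0.326), with total RNA overlapping between groups.

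**Figure D2:**
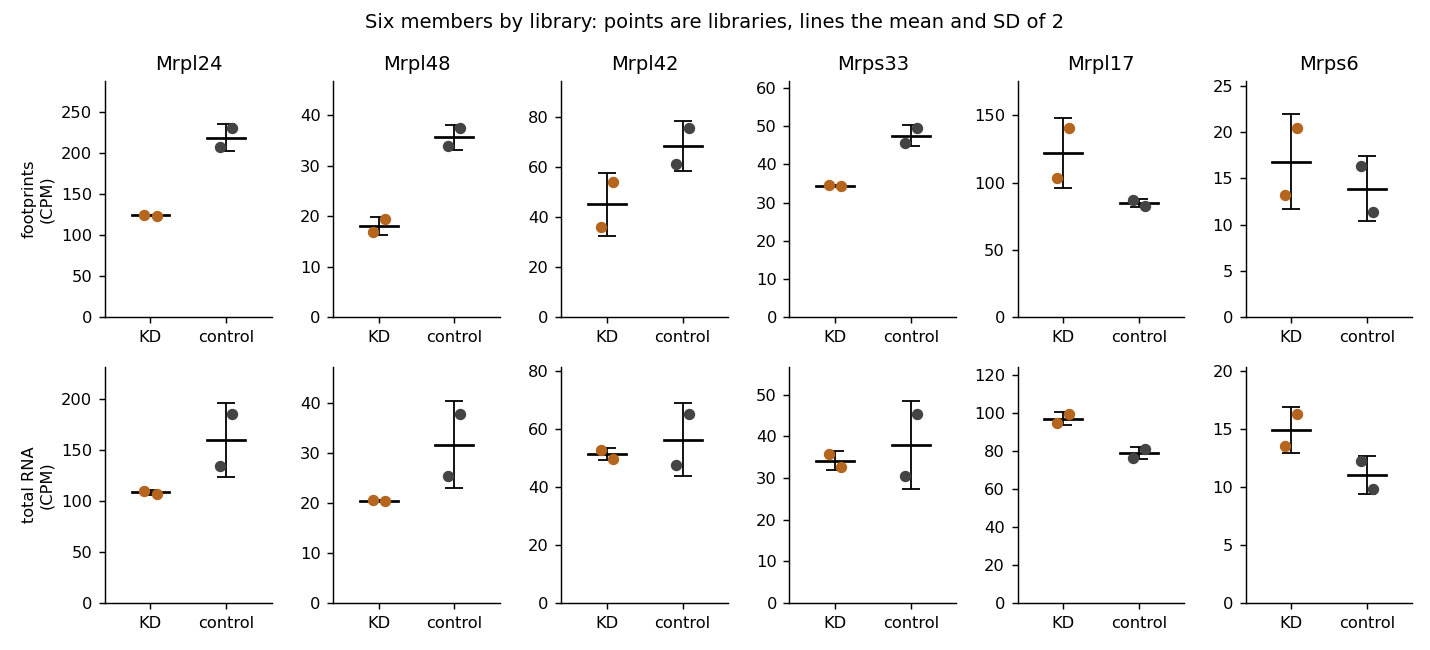
CPM of 6 members in each library (points), with the mean and SD of 2 libraries (lines), for footprints (top) and total RNA (bottom), knockdown (KD) left of control in every panel. Mrpl24 and Mrpl48 sit below control in both rows, Mrpl17 sits above it in both, and Mrpl42 and Mrps33 sit below control in the top row.

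Among the 27 large subunit proteins classed with a bacterial counterpart, 5 had footprints above control in both libraries, where 22.3% of all genes did. Mrpl20, which binds ribosomal RNA during bacterial assembly, had 70.4 and 79.5 CPM in the knockdown against 53.0 and 61.5 CPM in control libraries (a log2 fold change of 0.38 ± 0.17). Mrpl27, which reaches towards the catalytic centre of the ribosome in bacteria, had 29.8 and 31.8 CPM in the knockdown and 25.9 and 21.9 CPM in the control (0.36 ± 0.20). Mrpl12, the stalk protein that recruits translation factors, had 105.4 and 86.0 CPM in the knockdown and 87.4 and 60.2 CPM in the control (0.39 ± 0.21), and its groups overlapped by 1 library. Mrpl10, which anchors the stalk, had 0.16 ± 0.17, Mrpl11 at the stalk base had -0.25 ± 0.18, Mrpl3 near the catalytic centre had -0.13 ± 0.17, and Mrpl14 had -0.37 ± 0.23 as footprint log2 fold changes. None of these 7 passed limma's threshold.

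By class, the 27 measured large subunit proteins classed with a bacterial counterpart had a median footprint log2 fold change of -0.13, with 18 negative. In this class 8 lay below both controls in both libraries and 5 above. All genes gave 22.5% below and 22.3% above, so these counts are near those of all genes. The 22 large subunit proteins classed as mitochondria-specific had a median of -0.16, with 16 negative. Of them, 10 lay below both controls in both libraries and 0 above, to be read against the same shares of all genes. Mrpl47 and Mrpl55 were counted among these 22, and Mrpl47 among the 10, although both have bacterial counterparts. The split by class is therefore approximate, and the medians and counts were not made without them. These 22 include Mrps30 and Mrps18a, which bear small subunit names but sit in the large subunit in solved structures. The class is one of position: Mrps18a descends from a bacterial small subunit protein but has no counterpart in the bacterial large subunit. Among the mitochondria-specific ones, Mrpl45, which holds the ribosome near the inner membrane, had 124.7 and 137.7 CPM in the knockdown and 142.8 and 140.6 CPM in the control (-0.11 ± 0.16). Mrpl41 had -0.16 ± 0.25 and Mrpl44, which has a ribonuclease fold, had -0.02 ± 0.17. Mrps36, counted here by its symbol, is now known as a subunit of the alpha-ketoglutarate dehydrogenase complex and was placed in no class, and its footprint log2 fold change was -0.20 ± 0.22.

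In the small subunit the 16 proteins with bacterial counterparts had a median footprint log2 fold change of -0.07, with 9 negative, and the 10 mitochondria-specific ones had -0.09, with 8 negative. Mrps5, which lines the mRNA entry in bacterial ribosomes, had 124.1 and 128.4 CPM in the knockdown and 164.8 and 150.2 CPM in the control. Both knockdown values lay below both controls, with a log2 fold change of -0.32 ± 0.16 (limma adjusted p = 0.440). Mrps2 had 41.6 and 40.6 CPM in the knockdown and 31.8 and 35.2 CPM in the control, above in both libraries (0.29 ± 0.18, limma adjusted p = 0.533). Mrps7 had 0.22 ± 0.18, Mrps12 of the decoding centre had 0.15 ± 0.20 and Mrps11 had 0.09 ± 0.18. Mrps2 overlaps 1700007K13Rik, with a footprint log2 fold change of 0.36 ± 0.28. Mrps7 overlaps Gga3 (0.14 ± 0.17) and Mif4gd (-0.36 ± 0.20), and the part of these overlaps was not tested. Mrps16 differed between knockdown libraries, with 31.6 and 58.3 CPM in the knockdown and 56.3 and 66.0 CPM in the control (-0.49 ± 0.27). Mrps18c was like it, with 23.3 and 46.2 CPM in the knockdown and 39.6 and 49.3 CPM in the control (-0.42 ± 0.30). The related Mrps18a and Mrps18b, which descend from the same bacterial protein and are counted as mitochondria-specific for their position, had 0.005 ± 0.18 and -0.10 ± 0.17. Mrps22, Mrps27 and Mrps34, found only in mitochondrial ribosomes, had -0.17 ± 0.26, -0.01 ± 0.19 and 0.11 ± 0.17.

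In total RNA, again, no mitochondrial ribosomal protein gene passed the test with all 4 libraries. Limma called 0 of 77 members (0% of 13436 genes), and edgeR's quasi-likelihood test and DESeq2 on the recovered reads also called 0 of them. In the authors' deposited table, 0 members had an FDR below 0.05, where 2.21% of its genes were higher and 3.19% lower. At an unadjusted p below 0.05, 0 members were higher and 2 were lower (Mrpl24 and Mrpl48), against 6.82% and 8.08% of all genes. The median log2 fold change was -0.08 (large subunit -0.11, small subunit -0.08), against -0.002 over all genes, and 56 of 77 members were negative, against 50.3% of all genes. Both knockdown libraries lay above both controls in 3 members and below both in 18, where all genes gave 23.3% and 24.6%. The 3 were Mrpl17, Mrps6 and Mrps27.

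The controls differed from each other more than the knockdown libraries did. Summed over the members, total RNA was 4389 and 4288 CPM in the knockdown and 4143 and 5336 CPM in the control. Control 2 held the highest of 4 values in 64 of 77 members and control 1 the lowest in 43. Over all 13436 genes tested, control 2 held the highest in 4798 and control 1 the lowest in 3708. Between libraries of 1 group, the SD of the log2 difference over the members was 0.10 in the knockdown and 0.25 in the control. Over all 9013 genes with at least 10 CPM it was 0.13 and 0.45, so the wider spread of the controls was not particular to the members. Cytoplasmic ribosomal proteins showed the same library, with control 2 highest in 78 of 85 and a median log2 fold change of -0.22. Total RNA of the mitochondrial rRNA gene mt-Rnr1 was 639 and 1168 CPM in the knockdown and 1886 and 124 CPM in the control, in libraries that had been depleted of rRNA, and the part of this in the result was not tested.

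The direction of the members' total RNA therefore depended on which control was used. Without control 1 the median log2 fold change was -0.27, and limma called 47 members lower and 2 higher, where it called 23.0% of all genes lower and 23.1% higher. Without control 2 the median was 0.09, and 2 members were called lower and 9 higher, where 13.3% of all genes were lower and 12.0% higher. In both fits the lone control is taken to vary like the knockdown pair. Mrpl24 was called lower with either control alone (-0.77 ± 0.08 without control 1 and -0.31 ± 0.08 without control 2), as 6.53% of all genes were. Mrpl17 was called higher with either (0.25 ± 0.08 and 0.34 ± 0.08), as 6.1% of all genes were. Against that, 5 members (Mrpl20, Mrpl51, Mrps7, Mrps18c and Mrps26) were called lower without control 1 and higher without control 2, which 1.09% of all genes were, and Mrpl51 and Mrps26 are named after their values were seen.

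**Figure D3:**
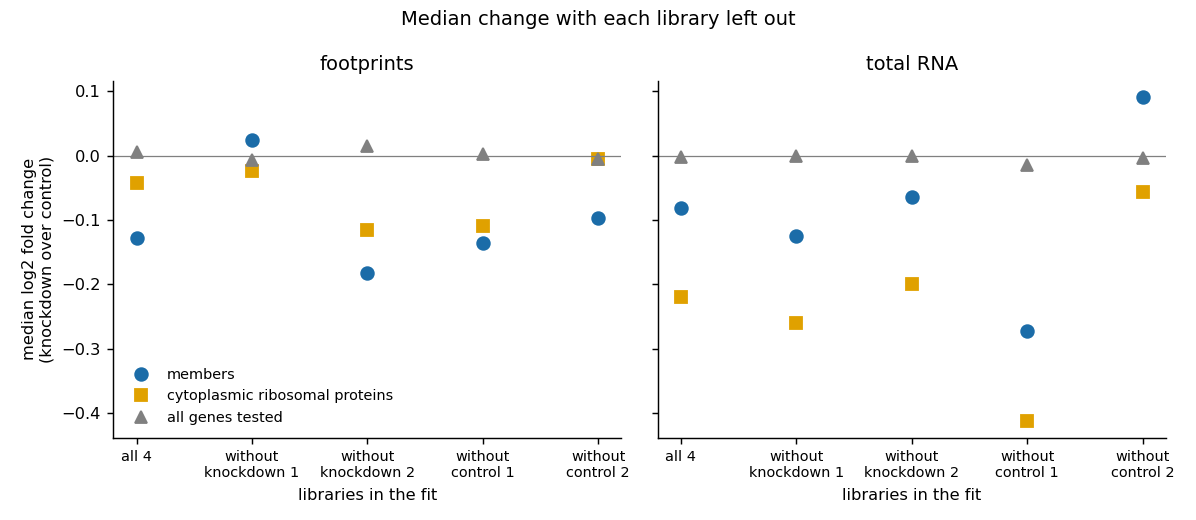
Median log2 fold change (knockdown over control) of the members, of cytoplasmic ribosomal proteins and of all genes tested, with all 4 libraries of an assay and with each left out in turn. In footprints (left) the members' median is 0.024 without knockdown 1, and in total RNA (right) it runs between -0.27 without control 1 and 0.09 without control 2, while all genes stay near 0.

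Other members with low p in total RNA were Mrpl35, Mrpl44 and Mrps6. Mrpl35, a bacterial-type protein, had 32.8 and 32.8 CPM in the knockdown and 38.8 and 50.3 CPM in the control, with a log2 fold change of -0.42 ± 0.17 (limma adjusted p = 0.339). Mrpl44 had 49.0 and 51.9 CPM in the knockdown and 56.6 and 84.2 CPM in the control (-0.45 ± 0.21, limma adjusted p = 0.390), while its footprints, with 89.0 and 100.1 CPM in the knockdown and 105.3 and 86.6 CPM in the control, overlapped. Mrpl44 overlaps Wdfy1, whose total RNA log2 fold change was -0.33. Mrps6, a bacterial-type small subunit protein whose gene overlaps Slc5a3, had 13.5 and 16.3 CPM in the knockdown and 12.2 and 9.87 CPM in the control (0.40 ± 0.20, limma adjusted p = 0.403), from 89 to 217 reads a library. Mrps11 (0.15 ± 0.17) and Mrpl49 (0.16 ± 0.21) were positive with all libraries and had -0.0024 and -0.11 without control 1.

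**Figure D4:**
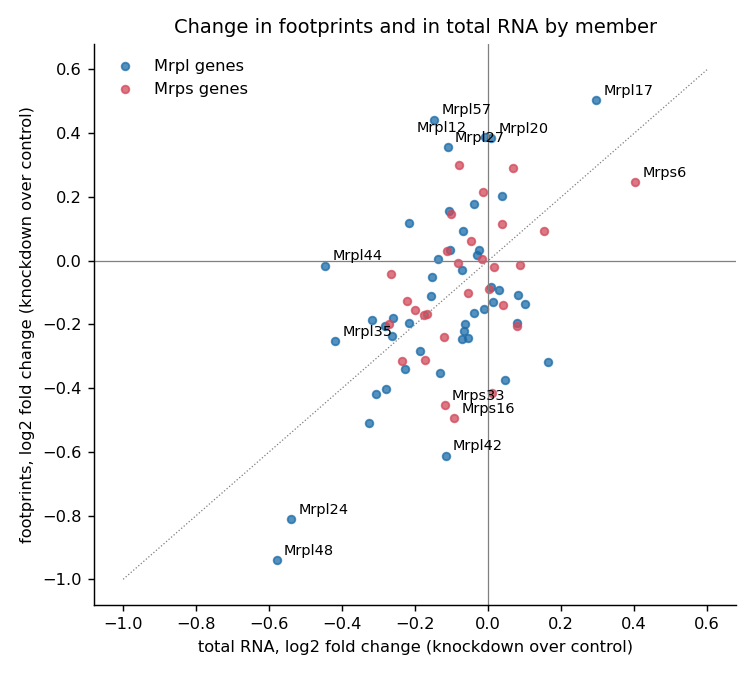
Log2 fold change in footprints (vertical) against total RNA (horizontal), knockdown over control, for 76 mitochondrial ribosomal protein genes; the dotted line marks equal change. Mrpl24 and Mrpl48 lie at the lower left and Mrpl17 at the upper right, and 38 genes are negative in both assays and 7 positive in both.

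Translational efficiency, the change in footprints beyond that in total RNA, was centred on 0. Its median log2 change was 0.003 over the 76 members, 0.02 for the large and 0.001 for the small subunit, with 39 positive and 37 negative, against -0.005 over 12358 genes, of which 50.8% were negative. Limma called 0 members (0% of all genes), and 0 had an unadjusted p below 0.05, where 0.955% of all genes were higher and 0.599% lower. Members with the smallest p were Mrpl27 (0.47 ± 0.25), Mrpl44 (0.43 ± 0.29), Mrps25 (0.38 ± 0.28) and Mrpl12 (0.40 ± 0.31) on the higher side. On the lower side they were Mrpl49 (-0.48 ± 0.28), Mrpl42 (-0.50 ± 0.32), Mrpl14 (-0.42 ± 0.32) and Mrpl48 (-0.36 ± 0.30). Mrps25 overlaps Nr2c2, whose log2 fold change was 0.55 ± 0.25 in footprints and 0.03 ± 0.15 in total RNA. Mrpl49 overlaps Syvn1, with 0.32 ± 0.19 in footprints and 0.46 ± 0.31 in total RNA. Mrpl27, Mrpl44, Mrpl14 and Mrpl48 also overlap another gene, and the part of these overlaps was not tested. Across the 76 members the changes in footprints and in total RNA correlated with Pearson's r at 0.52 and Spearman's rho at 0.42, given as a description across genes that share the same libraries, where all genes gave 0.66 and 0.61. The members' median moved between -0.17 without total RNA control 2 and 0.13 without total RNA control 1.

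Mitochondrial ribosomal protein mRNAs had a higher footprint-to-RNA ratio, at the median, than the genes of the tables as a whole. In knockdown cells the ratio of footprint CPM to total RNA CPM had a median of 1.13 over the 76 members. It was 0.842 over 7944 genes with at least 10 CPM in the control cells of both assays. In control cells it had a median of 1.16 over the members (1.10 for the large and 1.26 for the small subunit), against 0.856 over those genes. In control cells 16 members lay below the median of all genes, and over the 4 pairings of a footprint control with a total RNA control this count was 9 to 21. The members' median over those pairings was 0.943 to 1.36. The tables were normalized separately, so a ratio is read against other genes and not against 1, and no test was made of this difference. Cytoplasmic ribosomal proteins had a median of 0.924 in control cells.

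The members differed among themselves in this ratio. The 3 with the highest ratio in control cells were Mrpl22, which lines the peptide exit tunnel, Mrps36 and Mrpl52, which is specific to mitochondria. Mrpl22 had a ratio of 1.71 in the knockdown and 1.99 in the control, with 1.85 to 2.16 over the control library pairings. Mrps36 had 2.13 in the knockdown and 1.99 in the control (1.83 to 2.16), and Mrpl52 had 2.16 in the knockdown and 1.90 in the control (1.82 to 1.99). Mrps36 has named pseudogenes (Mrps36-ps1, Mrps36-ps2 and Mrps36-ps3), and their part in its ratio was not tested. The lowest ratios in control cells were those of Mrps7, with 0.637 in the knockdown and 0.530 in the control (0.437 to 0.665), Mrps24, with 0.571 in the knockdown and 0.534 in the control (0.433 to 0.676), and Mrpl30, with 0.522 in the knockdown and 0.563 in the control (0.471 to 0.671). Both sets of 3 were picked by the same control values that give the ranges, so the gap between the sets is no test of a difference. Within each set of 3 the control ranges overlapped.

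**Figure D5:**
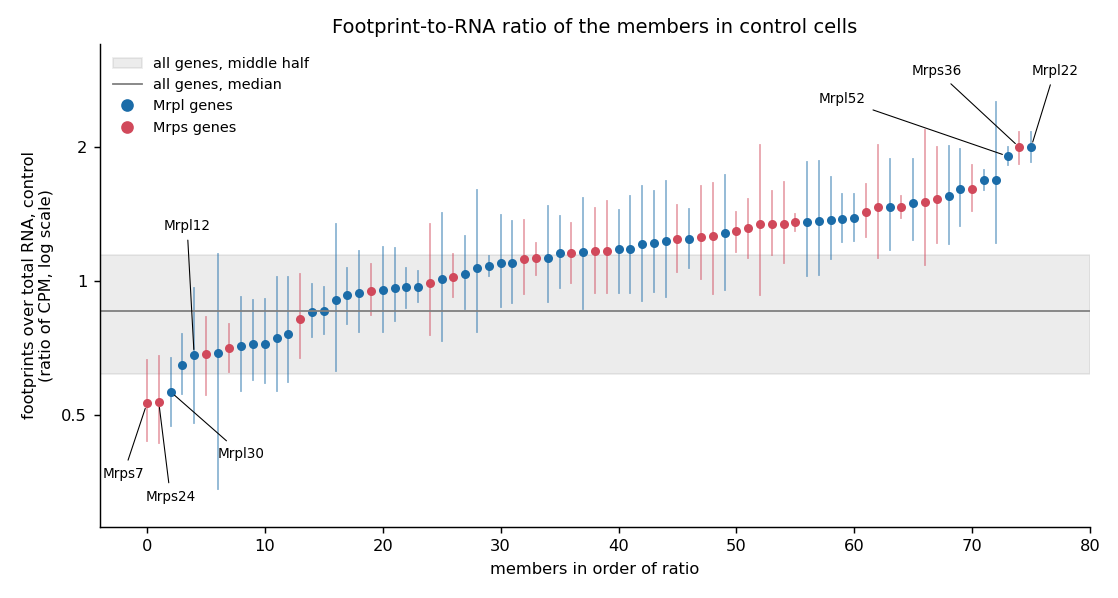
Ratio of footprint CPM to total RNA CPM in control cells (vertical, log scale) for 76 mitochondrial ribosomal protein genes in rising order. Points use the means of 2 libraries and lines span the 4 pairings of libraries; the grey line is the median of 7944 genes (0.856) and the band runs between their quartiles. Most members lie above the grey line, with Mrps7, Mrps24 and Mrpl30 lowest and Mrpl52, Mrps36 and Mrpl22 highest.

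No gene was called by limma in either assay in 3 lists of proteins that belong to or work with the mitochondrial ribosome, and at an unadjusted p below 0.05 there were 2 of 15 translation factors lower in footprints and 1 of 15 lower in total RNA, where 6.74% and 8.08% of all genes were. The 5 measured mitochondrial ribosomal proteins under other names (Dap3, Ptcd3, Aurkaip1, Chchd1 and Gadd45gip1) had a median log2 fold change of -0.16 in footprints and -0.19 in total RNA. The 15 translation factors had -0.05 and -0.07, and 12 of 15 were negative in footprints. Among them Oxa1l, which inserts new proteins into the inner membrane, had 53.8 and 61.4 footprint CPM in the knockdown and 85.5 and 81.6 CPM in the control (-0.53 ± 0.17, limma adjusted p = 0.256). Its total RNA was 36.1 and 34.9 CPM in the knockdown and 62.4 and 42.4 CPM in the control (-0.52 ± 0.21, limma adjusted p = 0.328). The release factor Mtrf1 had 7.43 and 12.8 footprint CPM in the knockdown and 17.2 and 18.1 CPM in the control (-0.79 ± 0.28, limma adjusted p = 0.290). By contrast the elongation factor Tufm had 0.03 ± 0.18 and the mRNA-binding Lrpprc -0.01 ± 0.18. The 26 measured factors of ribosome assembly and rRNA modification had medians of 0.04 in footprints and -0.02 in total RNA, with 18 positive in footprints.

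Motif letters that the choice of genes did not use were found in a larger share of the members than of all genes. RefSeq promoters of GRCm38.p6, 250 bases before and 50 after the start, were matched by symbol for 67 of the 77 members and for 10435 genes of the tables, and each motif was searched on both strands. The ETS letters CCGGAAG were found in 24 member genes (35.8%), against 19.5% of all matched genes. The NRF1 motif was in 13 (19.4%, against 11.3%) and the YY1 letters AAGATGGCG in 8 (11.9%, against 3.49%). At least 1 of these motifs was in 39 members (58.2%), against 30.5% of all matched genes. Median G and C content was 58.7% in the members' promoters and 60.7% in all. These are counts of letters, given with no test, and not of bound factors. They were not made for similar gene sets such as cytoplasmic ribosomal proteins, so they are not shown to be particular to the members.

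The YY1 letters are printed with 10 bases either side, because in 6 of the 8 members they stand after the gene's start and on its own strand. These letters hold ATG, a start codon, and whether any of them stands where translation starts was not tested. Each is on the gene's strand, 5′ to 3′, with the motif or its reverse complement in capitals; the Mrps24 window stops at the end of the 300 bases.
Mrpl35: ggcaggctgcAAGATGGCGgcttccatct
Mrpl36: cgtgaccttaCGCCATCTTtcttcctggc
Mrpl37: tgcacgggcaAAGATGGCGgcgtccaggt
Mrpl42: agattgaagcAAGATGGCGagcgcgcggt
Mrps11: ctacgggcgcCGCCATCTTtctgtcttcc
Mrps18a: ggtgcgttccAAGATGGCGgccctcaggg
Mrps24: gcgccggcccAAGATGGCGtggtc
Mrps27: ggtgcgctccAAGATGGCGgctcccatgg
In the same build these stand at chr6:71823743-71823771 (Mrpl35, minus strand), chr13:73330968-73330996 (Mrpl36, plus), chr4:107066822-107066850 (Mrpl37, minus), chr10:95501904-95501932 (Mrpl42, minus), chr7:78783013-78783041 (Mrps11, plus), chr17:46111005-46111033 (Mrps18a, plus), chr11:5707652-5707675 (Mrps24, minus) and chr13:99344790-99344818 (Mrps27, plus). The 6 began between 11 and 36 bases after the gene's first base, and in Mrpl36 and Mrps11 the reverse complement stood 31 and 108 bases before it. Among all genes with the YY1 letters, 195 of 364 (53.6%) had them on the gene's strand after the start, against 75.0% of the 8 members. The footprint log2 fold changes of these genes were -0.61 in Mrpl42, -0.25 in Mrpl35, -0.19 in Mrpl36, -0.08 in Mrpl37, -0.01 in Mrps27, -0.007 in Mrps24, 0.005 in Mrps18a and 0.09 in Mrps11, so 6 of the 8 were negative, a share like that of all members. Mrpl36 and Mrpl37 are named here for their promoters.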

How the data were processed

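Footprints and total RNA were sequenced in 8 libraries, as single-end 50 bp reads, each RPF library 4 times, per the labels' protocols. The authors deposited 1 table per assay. Its library columns hold a signal on the CPM scale that the authors made by dividing reads by an effective library size. The deposited tables also hold the authors' log2 fold changes (read here as knockdown over control, as their signs match the group means), a likelihood ratio as a score, and p-values with FDR. Per the submitters' processing notes, the genome build was mm9 and the tools included HTSeq 0.11.2, edgeR 3.26.8, TopHat2 2.1.1 and Bowtie 1.2.3, with no roles given. No mm9 coordinates are given here.

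Values were whole multiples of 1 read (0.0751 to 0.114 CPM) within 0.01 read for 100% of genes, so reads could be recovered, but in RPF control 2 that step lies too near 0.1 to be told from rounding, and count tests leave it out. The main test was limma 3.58.1 (R 4.3.3) on log2(CPM + 1) with a variance trend over genes kept by filterByExpr of edgeR 4.0.16 (minimum count 10, minimum total 15), with Benjamini-Hochberg adjustment over all genes and a threshold of 0.05. Fold changes on this scale understate those of genes with few reads. Translational efficiency was the interaction of assay and knockdown over 8 libraries. An exact permutation test of 1 gene over 2 against 2 libraries cannot go below a two-sided p of 0.333, so none was made. The scripts were tested on simulated data. The members, lists and tests were chosen with earlier results of these data known.

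Genes were named by a rule: 18 fixed for their place in the ribosome, the 4 smallest p in each direction and comparison, and the 3 highest and lowest control ratios, in all 36 members. Levels per protein length and protein features, also planned, were not analysed here for want of protein sequences, so levels are not compared between genes. RefSeq GRCm38.p6 tables gave promoters and overlapping genes: 23 of 77 members overlap another gene and 4 have a named pseudogene, and their reads are uncertain to that extent. DESeq2 1.42.0, edgeR, other pseudocounts, filters, centring, replicate blocks and leaving out each library were alternatives.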

Additional observations from a re-analysis of the deposited data

How the results depend on the processing

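With 2 libraries a group, single libraries decide the medians, and only large differences could pass. Apart from leaving out libraries, every alternative run (pseudocounts of 0.5 and 2, no filter, a mean of at least 10 CPM, centring, 1 fit over 8 libraries, replicate blocks, edgeR and DESeq2) gave 0 members called. All 192 values of single genes kept their direction and side of the threshold. All 96 summary values were unchanged by a looser measure, in which a median could move by less than the SD between replicate libraries' medians. Over all members that SD was 0.098 in footprints, 0.19 in total RNA and 0.22 for translational efficiency. The direction of the medians was not part of this check, so a median near 0 could change sign within it. Over all genes the calls did vary: 15 higher and 25 lower in footprints after centring, 43 and 46 in the fit over 8 libraries, and 104 and 168 in total RNA with DESeq2, against 0 in the main fits.

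With 1 library left out at a time, the footprint median of the members ran from -0.18 to 0.024 (large subunit -0.18 to -0.041, small subunit -0.23 to 0.067), the positive end without knockdown 1. In total RNA it ran from -0.27 to 0.091 (large -0.32 to 0.094, small -0.26 to 0.067) and the number of members called from 0 to 49, the extremes without control 1 or control 2 (49 and 11 called). For translational efficiency the large subunit's median ran from -0.22 to 0.16. Of the named genes, Mrps11 ran from -0.0024 to 0.31 and Mrpl49 from -0.11 to 0.43 in total RNA, both negative without control 1 only. Of 128 such values of named genes 117 kept their direction and side of the threshold, these 2 changed sign without being called, and 9 passed the threshold; the cause was not tested.

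No label says that replicate numbers pair the samples. Deviations of same-numbered knockdown and control libraries correlated at 0.17 in footprints and -0.15 in total RNA, and those of same-numbered footprint and total RNA libraries at 0.11 in the knockdown and 0.20 in the control, so the numbers were not taken as pairs. With the replicate number as a block 0 members were called in any comparison, and over all genes 7 higher and 14 lower in footprints and 285 higher and 351 lower in total RNA. The crossed pairing of total RNA, added after seeing the data, called 0 members, with 440 genes higher and 484 lower.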

Other observations

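Footprint libraries also held reads of the mitochondrial rRNAs, which are not mRNAs. The gene mt-Rnr1 had 2827 and 5852 footprint CPM in the knockdown and 4787 and 16825 CPM in the control, and mt-Rnr2 had 5165 and 20080 CPM in the knockdown and 10401 and 28761 CPM in the control. The groups overlapped for both genes. In total RNA mt-Rnr2 had 1084 and 2239 CPM in the knockdown and 2290 and 318 CPM in the control. Footprint control 2 was thus the highest of the footprint libraries and total RNA control 2 the lowest of the total RNA libraries, though no label pairs them. These libraries were made with rRNA depletion, so the values do not measure the amount of rRNA in the cells.

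Mrpl57, a small mitochondria-specific protein of the large subunit, is named after its values were seen, because its change in translational efficiency (0.59 ± 0.50) was the highest of the 76 members. Its footprints were 44.1 and 32.6 CPM in the knockdown and 44.1 and 17.2 CPM in the control, and its total RNA was 42.0 and 37.6 CPM in the knockdown and 38.4 and 50.7 CPM in the control. Footprint control 2 alone stood low and total RNA control 2 alone stood high, libraries that no label pairs, and limma's adjusted p was 1.00.

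Among assembly factors, Spg7, a subunit of a protease of the inner membrane, lay above control in every library, with 87.7 and 103.8 footprint CPM in the knockdown and 75 and 71.1 CPM in the control, and 131.9 and 129.3 total RNA CPM in the knockdown and 102.4 and 115.7 CPM in the control. Rbfa, which helps mature the small subunit, lay below control in every library, with 76.8 and 66.2 footprint CPM in the knockdown and 91.8 and 83.9 CPM in the control. Neither passed limma's threshold (adjusted p = 0.388 and 0.497 in footprints), and both are named after their values were seen.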
